A study of Mus musculus with 3 samples.

Results

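Brachyury, the founding member of the T-box family of transcription factors, drives the formation of trunk and tail mesoderm, and the Hox clusters and the Cdx genes are classic parts of the program that sets position along the body axis. The regions described here are those places of the deposited Brachyury list that lie at the 4 Hox clusters or at the caudal-type genes Cdx2 and Cdx1. A region was taken where its midpoint fell within 100 kb of a cluster's interval or of a Cdx transcription start site, on the mouse build mm9. Of the 3160 regions in the list, 7 (0.222%) met this rule. There were 3 at HoxA, 3 at HoxD and 1 at Cdx2, and 0 at HoxB, HoxC and Cdx1.

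The cells were D3, a mouse embryonic stem cell line of (C3H/HeH x 101/H)F1 origin, driven without serum and with Activin A toward mesoendoderm, the common precursor of mesoderm and endoderm. Chromatin immunoprecipitation with sequencing (ChIP-seq), which pulls down the DNA that a protein occupies and sequences it, was done with 2 custom rabbit antibodies, named #1 and #2, and with pre-immune IgG as a mock, giving 1 library each. The 2 rabbits shared 1 antigen, a GST fusion that carried Brachyury from residue 249 to residue 436. The data are 1 list of positions, named as common, with no height, score or p-value and no value of any library, so no comparison between the antibodies, or of either with the mock, was made, and read depth is unknown. The list holds no expression values either, so the identity of the cells could not be checked against marker genes.

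Hox genes encode homeodomain transcription factors and stand in 4 clusters, in each of which the order of the genes along the DNA follows the order of their expression from head to tail. Genes with low numbers are switched on early and toward the head end, and genes with high numbers later and toward the tail. Cdx1 and Cdx2 encode homeodomain factors of the caudal family that act on Hox genes in the posterior embryo, where Brachyury is also expressed. The member genes number 40, of which 10 belong to HoxA, 10 to HoxB, 9 to HoxC and 9 to HoxD, with Cdx1 and Cdx2 besides.

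The promoters of Cdx2 and of Hoxd9 show the DNA of the loci at issue. Cdx2 is printed because a listed region lies near its start site, as far as that position is known. Hoxd9 is printed because it alone among the members matched in the promoter table holds the T-box letters searched for. The stretches printed are the 250 bases before each gene's start, from RefSeq. They are on build GRCm38.p6 and not on mm9, so their positions cannot be set beside those of the regions. The Cdx2 stretch is chr5:147307250-147307499 on the minus strand, and that of Hoxd9, which encodes a HoxD factor of the middle of the cluster, is chr2:74697513-74697762 on the plus strand. Both are written 5′ to 3′ in the direction of the gene, and capitals mark GGTGTGA or, on the other strand, TCACACC.
Cdx2: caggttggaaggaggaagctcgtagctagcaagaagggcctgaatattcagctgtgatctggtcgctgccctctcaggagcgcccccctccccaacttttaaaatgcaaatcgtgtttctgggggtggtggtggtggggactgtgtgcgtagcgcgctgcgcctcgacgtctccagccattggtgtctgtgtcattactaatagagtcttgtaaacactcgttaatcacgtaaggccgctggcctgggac
Hoxd9: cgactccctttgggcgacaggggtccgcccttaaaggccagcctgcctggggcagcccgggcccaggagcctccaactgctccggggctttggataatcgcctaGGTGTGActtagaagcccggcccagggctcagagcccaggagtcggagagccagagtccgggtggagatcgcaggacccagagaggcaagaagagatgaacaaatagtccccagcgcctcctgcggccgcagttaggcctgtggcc

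In the Hoxd9 stretch the letters GGTGTGA stood from 146 to 140 bases before the start, read on the gene's own strand. The Cdx2 stretch held neither orientation. These letters are only a part of the T-box recognition sequence, and a match is only a match of letters.

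At HoxA the 3 regions lay at or below the lower end of the cluster. The rule gives the cluster as chromosome 6, 52100000 to 52220000. The first region, at 52028691 to 52029585, was 895 bp wide, and its midpoint lay 70862 bp below the lower end of the cluster. The second, at 52065455 to 52066622, was 1168 bp wide and lay 33962 bp below that end. The third, at 52103175 to 52103834, was 660 bp wide and was the only 1 of the 3 inside the interval, 3.5 kb from its lower end or 2.92% of the way along it.

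The HoxA regions thus stood at and below the lower end, and the remaining 116 kb of the interval held none. In the gene order of the RefSeq table, Hoxa2, a factor of the hindbrain and head end, comes ahead of the other member genes on that side, and the order then runs through Hoxa3, Hoxa4, Hoxa5, Hoxa6, Hoxa7, Hoxa9, Hoxa10 and Hoxa11 to Hoxa13, which acts in the limb tip and hindgut. The next protein-coding gene past Hoxa13 is Evx1, another homeobox gene. The neighbour on the Hoxa2 side was not looked up. Whether the 2 regions below the interval lie nearer to a gene outside the cluster is therefore not known. The table is on GRCm38.p6 and was used for this order alone, so no region was assigned to an exon, intron or promoter of a gene. Midpoints of the HoxA regions were evenly spaced, with 36.9 kb from the first to the second and 37.5 kb from the second to the third. The next listed region above them, at 52439995 to 52440880, was 220 kb past the upper end of the cluster.

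At HoxD all 3 regions lay inside the cluster, given as chromosome 2, 74490000 to 74610000. The first, at 74519957 to 74521152, was 1196 bp wide and lay 25.5% of the way along the interval, 30.6 kb from its lower end. The second, at 74542665 to 74543529, was 865 bp wide and lay 44.2% along. The third, at 74587193 to 74587969, was 777 bp wide and lay 81.3% along, 22.4 kb from the upper end.

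These positions were spread over the length of HoxD and not gathered at an end as those at HoxA were, a comparison of 3 regions with 3 that was not tested. The gene table orders HoxD from Hoxd13, needed for the digits and the genital tubercle, through Hoxd12, Hoxd11, Hoxd10, Hoxd9 and Hoxd8. Then come Hoxd3 and Hoxd4, with Hoxd1 at the upper end. Genes were sorted by the lower end of each span, which does not settle the order of Hoxd3 and Hoxd4. The next protein-coding gene above is Mtx2, which encodes a protein of the mitochondrial outer membrane. The spacing was 22.5 kb from the first region to the second and 44.5 kb from the second to the third. No other region was near: the next listed ones were at 73111354 to 73112168, 1380 kb below the interval, and at 75541571 to 75542579, 932 kb above it. In the 2.43 Mb between these neighbours the list held the 3 HoxD regions and nothing else. From the first HoxD region to its lower neighbour was 1410 kb, and 14.8% of the 3140 distances between adjacent regions in the list were at least as long. From the third to its upper neighbour was 954 kb, which 22.2% of distances reached. The median distance was 306 kb.

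At Cdx2, which encodes a caudal factor of the early trophoblast, tail bud and gut, 1 region lay at 148116049 to 148116913 on chromosome 5 and was 865 bp wide. The rule places the start site at 148120000, and the midpoint of the region was 3519 bp below that. Since the rule gives this position to the nearest 10 kb, the true distance is not known. Whether the region falls at the start site, before it or inside the gene cannot be told. Its neighbours in the list were at 147887793 to 147888801, 232 kb below the start site, and at 148241389 to 148242295, 122 kb above it. In the gene table the next protein-coding genes above Cdx2 are Urad and Flt3, a receptor tyrosine kinase of blood progenitors.

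**Figure D1:**
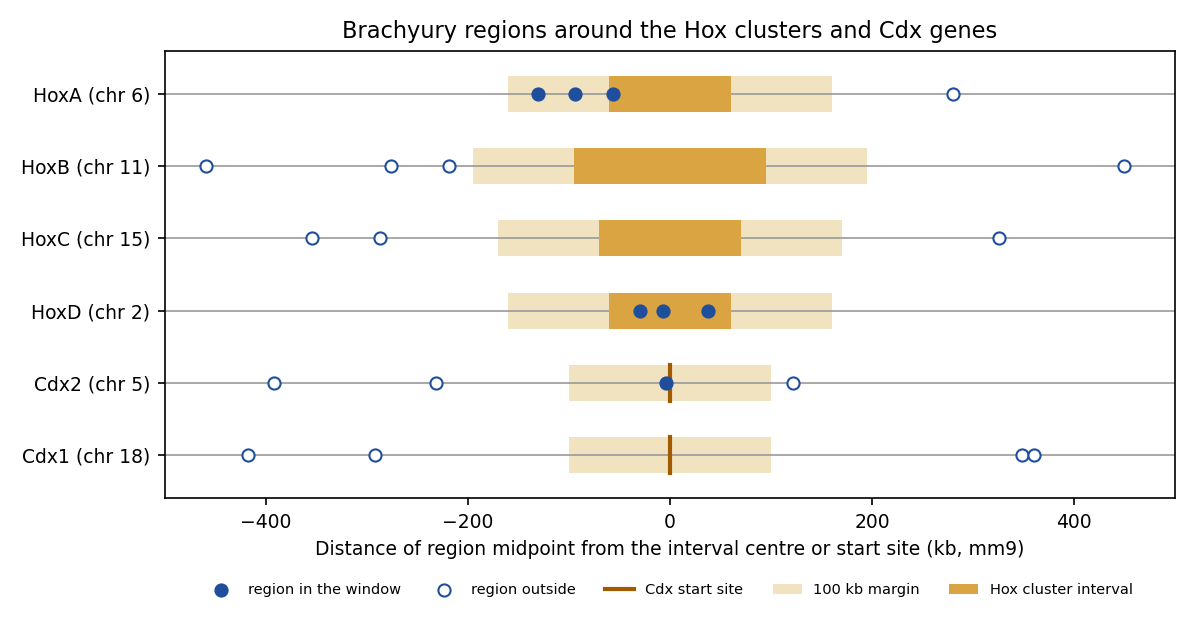
Midpoints of listed Brachyury regions (circles) against distance in kb from the centre of each Hox interval or from the Cdx start site, 1 row per locus, with the cluster interval in dark yellow and the 100 kb margin in pale yellow. The 3 HoxA regions sit at and below the lower end of the cluster, the 3 HoxD regions sit inside it, 1 region sits at Cdx2, and the bands of HoxB, HoxC and Cdx1 hold no filled circle.

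The HoxB window held 0 regions. Its interval is given as chromosome 11, 96050000 to 96240000. Sorted by the lower end of each gene's span, the member genes began with Hoxb13, Hoxb9, Hoxb8, Hoxb7, Hoxb6 and Hoxb5. Then came Hoxb3, Hoxb4 and Hoxb2, with Hoxb1, a hindbrain gene, at the upper end. Such sorting can put a gene with a long span ahead of its neighbour, so it does not settle the order of Hoxb3 and Hoxb4. The nearest region below, at 95925666 to 95927089, was 1424 bp wide and 124 kb from the interval, just outside the 100 kb margin. The nearest above, at 96593880 to 96594525, was 354 kb away. The empty stretch measured 667 kb, and 29% of the distances between adjacent regions in the list were at least as long as that across HoxB.

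HoxC also held 0 regions. It is given as chromosome 15, 102740000 to 102880000, with Hoxc13, a factor of hair and nails, at the lower end, then Hoxc12, Hoxc11, Hoxc10, Hoxc9, Hoxc8, Hoxc6 and Hoxc5, and Hoxc4 at the upper end. The nearest regions were 216 kb below, at 102523321 to 102523773, and 256 kb above, at 103135334 to 103136249. The empty stretch of 612 kb was matched or exceeded by 31.1% of the distances between adjacent regions.

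Cdx1, a caudal factor of the primitive streak and intestine, had no region in its window (0 regions). Its start site is given as 61200000 on chromosome 18. The nearest regions were 292 kb below, at 60907275 to 60908646, and 348 kb above, at 61547858 to 61548663, leaving 639 kb empty, a distance that 30% of adjacent pairs reached. Gaps of this size were thus common in the list. How regions were selected for the list is not stated. A locus without a region is therefore only unlisted, which is not evidence that Brachyury was absent from it.

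To set the counts against their surroundings, each window was shifted along its own chromosome in steps of its own length, and the regions in each shifted window were counted. The shares that follow describe the list and are not tests. At HoxA, 23.4% of 449 shifted windows of 320 kb held at least 1 region and 1.56% (7 windows) held 3 or more, with a mean of 0.332 (SD 0.694 between windows) and a maximum of 5. At HoxD, 31% of 554 shifted windows held at least 1 region and 3.79% (21 windows) held 3 or more, with a mean of 0.477 (SD 0.89) and a maximum of 6. Windows of that length tiled over all chromosomes held 3 or more regions in 2.7% of 7844 cases. Windows with 3 or more regions were uncommon in each of these backgrounds, and none was without them.

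The Cdx2 count was an ordinary one, since 22.5% of 741 shifted windows of 200 kb on chromosome 5 held at least 1 region. Nor did the empty windows stand apart. On chromosome 11, at 2.05 regions per Mb, 43.7% of 300 shifted windows of 390 kb held at least 1 region and 56.3% held none, as HoxB did. For HoxC, 26.6% of 290 shifted windows of 340 kb held at least 1 region and 73.4% held none. For Cdx1, 17.5% of 405 shifted windows held at least 1 and 82.5% held none.

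Added over the 6 windows, the means of the shifted windows came to 2.53 regions, beside the 7 listed, and the shares with at least 1 region came to 1.65 windows, beside 3. Over the 4 Hox windows alone the means came to 2.03 regions, beside 6. Among the Hox windows the excess in number came from HoxA and HoxD, each with 3 regions in 320 kb. That is 9.38 regions per Mb each, against 1.07 and 1.51 per Mb on their whole chromosomes. Cdx2, with 1 region, was also above its mean of 0.283. Neither the shifted windows nor the whole chromosomes were matched to these loci for gene density. The shares depended on the window and the shifts. With a 50 kb margin the HoxA window held 2 regions and 3.97% of its shifted windows as many, the share for HoxD was 2.11% and that for Cdx2 12.1%. With shifts in smaller steps, so that neighbouring shifted windows overlapped, 2.45% of windows (22 of 898) reached the HoxA count. Among the shifted windows within 20 Mb, 0 of 124 reached the HoxA count and 36.1% of 119 reached that of Cdx2.

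**Figure D2:**
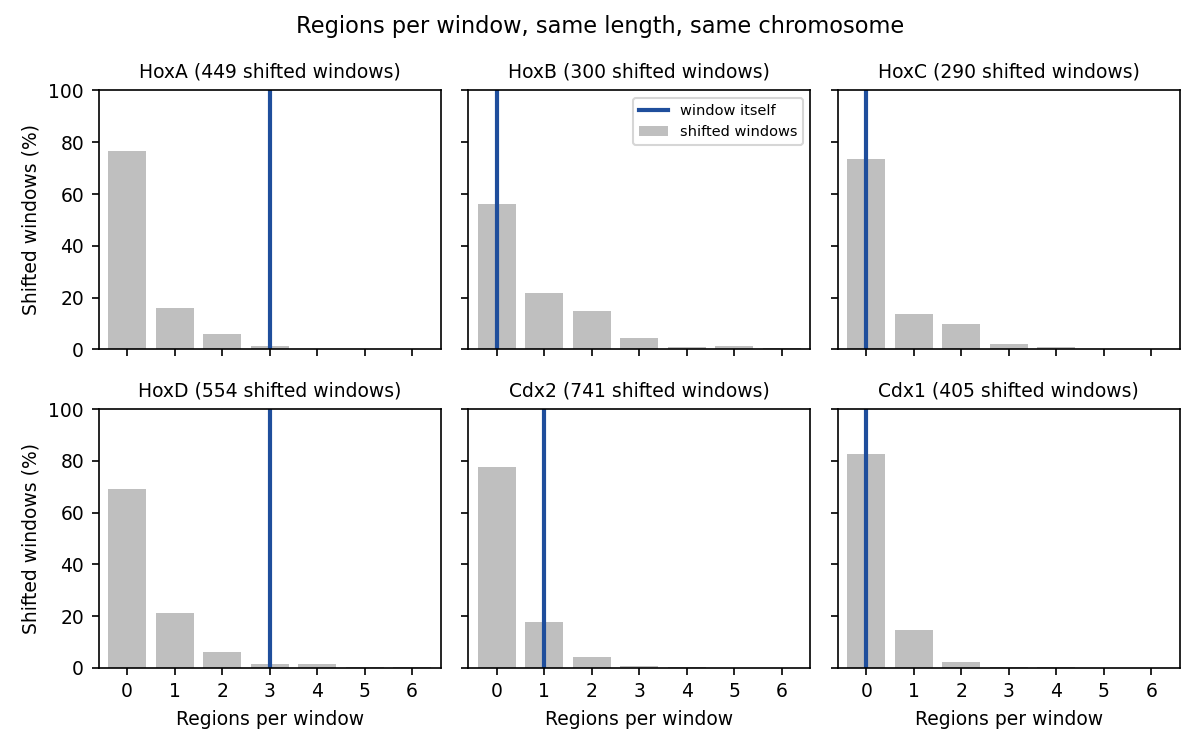
Percent of shifted windows (vertical axis, grey bars) against the number of regions they hold (horizontal axis), for windows of the same length on the same chromosome, with a blue line at the count of the window itself. The lines of HoxA and HoxD stand at 3, where the bars are low (1.56% and 3.79% of windows at or beyond), that of Cdx2 at 1, and those of HoxB, HoxC and Cdx1 at 0, the tallest bar of each plot.

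Runs of 3 close regions were also counted over the whole list. From the first to the third midpoint, the HoxA regions spanned 74.4 kb and the HoxD regions 67 kb. Of 3120 runs of 3 consecutive regions on any chromosome, 3.62% (113 runs) spanned no more than the HoxA regions and 3.11% (97 runs) no more than the HoxD regions, and the median run spanned 831 kb. Within 50 kb of another region lay 6 of the 7 Hox and Cdx regions, the exception being that of Cdx2, compared with 26.8% of all regions. The choice of regions within narrow windows itself favours close neighbours. None had a neighbour within 1 kb (0 of 7).

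The widths of the Hox and Cdx regions were those of the list at large. Their median was 865 bp, with a range from 660 to 1196 bp, beside a median of 850 bp and quartiles of 680 and 1020 bp for all 3160. Of the 7, 5 were at least as wide as the list median. The widest, the first HoxD region at 1196 bp, was as wide as or wider than 88.9% of all regions, and the second HoxA region at 1168 bp than 87.4%. The narrowest, the HoxA region inside the cluster at 660 bp, was as wide as or wider than 21.9%. How width relates to occupancy is not known for this list, so the order of widths is no order of binding.

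**Figure D3:**
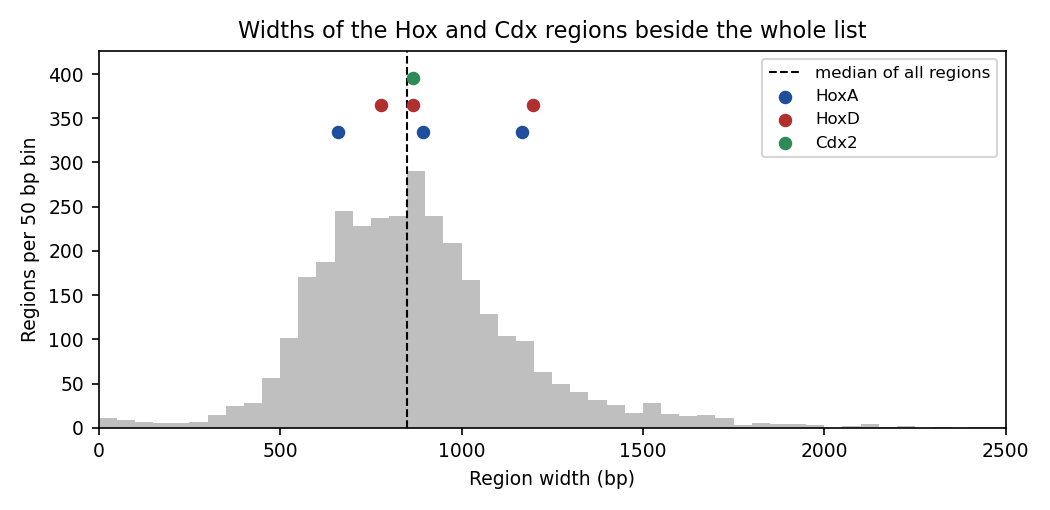
Histogram of the widths of all listed regions in bins of 50 bp (grey, regions per bin, a few wider than the axis not shown), with the median as a dashed line and the Hox and Cdx regions as points set above the bars by locus. The points fall between 660 and 1196 bp, on both sides of the median of 850 bp.

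The sequences under the 7 regions themselves were not analysed here. In their place the T-box letters GGTGTGA, or TCACACC for the other strand, were looked for in the RefSeq promoters of the member genes, each 300 bases long, from 250 before to 50 after a start. Of the 40 member genes 23 matched an entry of that table, with 25 promoters, and 1 of these promoters (4%, Wilson 95% interval 0.71% to 19.5%), that of Hoxd9, held the letters. The letters were in 3.98% of all 32851 promoters, so the share among the members was close to the background. With the shorter GGTGTG, or CACACC, which every match of the longer motif also contains, Hoxa2 joined Hoxd9, making 2 of 25 (8%, interval 2.22% to 25%) beside 19% of all promoters. By cluster, the longer motif was in 1 of 10 HoxD promoters, in 0 of 10 HoxA promoters, in 0 of 3 from HoxB and in 0 of 1 from HoxC. The share of G and C in the 250 bases before the start was 58% at the median of the member promoters, ranging from 40.4% to 80%, and 52.4% over all promoters. The intervals cover counting error only, and promoters of neighbouring Hox genes may be related in sequence, which was not tested.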

How the data were processed

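The series has 1 deposited list, of 3160 regions, which gives a chromosome, start and end for each and no other value. The submitters' processing notes name Bowtie, MACS2 and mm9 without role or version. The sources used here do not state how this common list was built or with what thresholds. Starts, counted from 0 in the file, were written here counted from 1. The intervals and start sites (to the nearest 10 kb) and the margin of 100 kb were set for this work, and the genes, windows and motifs were chosen with earlier results of these data known. Every region in a window and every member gene is named.

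Shifted windows had the length of the window, were moved by whole multiples of it, lay whole between the chromosome's outermost regions and did not overlap the window. The counting was tested on simulated lists first. With 1 library per antibody and no value per library, no test was made. Gene order and promoters came from RefSeq tables on GRCm38.p6, and no position was converted between builds. The promoter table runs in the direction of each gene: on minus-strand genes TATAAA stood 21 to 40 bases before the start in 303 promoters and its reverse complement in 90. No sequence was read at the regions, as no mm9 genome was used. Python 3.11.15, numpy 2.4.6, pandas 2.3.3, scipy 1.17.1 and matplotlib 3.10.9 were used. Alternatives were margins of 50 and 200 kb, overlap by any base, merging of neighbours under 1 kb apart, regions of at least the median width, smaller steps, shifts within 20 Mb and a shorter motif.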

Additional observations from a re-analysis of the deposited data

How the results depend on the processing

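Of 72 recomputed values, 61 stayed within 1.5 times the reported count or within the Wilson 95% interval of the reported share, and 11 moved outside. The shares of empty windows were recomputed as an addition made after the data were seen. For HoxB, HoxC and Cdx1 the share of windows with at least as many regions is 100% by construction. Those shares could not move, yet they are counted among the 61, so that tally overstates the stability of the results. With a 200 kb margin HoxB held 2 regions and Cdx2 held 2, while HoxA and HoxD held 3 each and HoxC and Cdx1 held 0. With a 50 kb margin the share of shifted windows with at least as many regions was 3.97% for HoxA (2 regions), 2.11% for HoxD and 12.1% for Cdx2, and the share with none was 63% for HoxB and 90.7% for Cdx1. For shifted windows within 20 Mb, the share with at least as many was 0% for HoxA and 36.1% for Cdx2, and the share with none was 40.2% for HoxB and 53.4% for HoxC. The 50 kb and 200 kb margins also changed the length of each window. The cause of the moves was not tested. No paired analysis was possible because the positions come from 1 common list without replicates. Read depth is unknown, so loci missed for it could not be judged.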
